A study of Mus musculus with 24 samples.

Results

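This report covers 10 genes that encode inflammatory cytokines induced by lipopolysaccharide (LPS), followed across macrophage libraries labelled wild type or knockout for Olfml3, a secreted glycoprotein gene. They were Tnf, Il1a, Il1b, Il1rn, Il6, Lif, Il10, Il12b, Il23a and Il27, each chosen by its gene symbol. All 10 were found once in each of 2 expression tables of 56691 genes. Transcriptomes of 24 libraries were sequenced in 8 groups of 3: RAW264.7 cells, a mouse macrophage line, and bone marrow-derived macrophages (BMDMs), each wild type or Olfml3 knockout, and each given PBS or LPS (100 ng/mL, 4 h). The RAW264.7 knockout was made with a lentiviral CRISPR guide and single-cell cloning, so the edited line and its clonal origin cannot be told apart. BMDMs were grown in L929-conditioned medium from the marrow of male C57BL/6 mice aged 8 weeks, wild type or Olfml3-/-, the latter made with CRISPR-Cas9. All 4 groups of a cell type shared its culture conditions, and the study calls the 3 libraries of a group biological replicates. Whether they came from separate cultures, clones or animals is not given in what was read here, so p-values measure the spread between these libraries only.

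LPS is sensed by Toll-like receptor 4, and the signal reaches the nucleus through the transcription factors NF-kappaB and AP-1 and, by a second branch, through type I interferon. Macrophages answer within hours by transcribing cytokines that act on other cells: TNF and IL-1 raise the alarm, IL-6 drives the acute phase response, and members of the IL-12 family instruct lymphocytes. Other products of the same response restrain it, among them IL-10, which quiets macrophages, and the IL-1 receptor antagonist encoded by Il1rn, which occupies the IL-1 receptor without signalling.

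Promoter sequence was looked up because most of the 10 genes rose with LPS in each comparison. RefSeq windows (build GRCm38.p6, 250 bases before and 50 after a start site) were held for 7 of the 10 genes, with 3 windows for Il1rn and 1 for each of the others. The 250 upstream bases were searched on both strands for 4 motifs: GGNNTTTCC, an NF-kappaB type element, TGANTCA, an AP-1 type element, TTGCNNAA, a C/EBP type element, and TATAAA, the TATA box. Among all 32851 windows of this length, these letters were found in 4.93%, 6.75%, 9.56% and 12.4%, respectively. The NF-kappaB type letters were found upstream of Il6 and in 1 window of Il1rn, so in 2 of the 7 genes. The AP-1 type letters were found for 4 genes (Il1a, Il1rn, Il6 and Lif), the C/EBP type letters for Il6, and TATAAA for 3 genes (Tnf, Il1a and Il1b). Of these, 5 are shown: Tnf and Il1b, the most abundant of the 10 with LPS, Il6 and Lif, which differed between genotypes in opposite directions in RAW264.7, and Il12b, which like Lif was abundant in 1 cell type and near 0 in the other. Each gives the 150 bases that end just before the start site, 5′ to 3′ on the strand of the gene, and capitals mark a match to 1 of the 4 motifs.
Tnf (chr17:35202008-35202157, minus strand): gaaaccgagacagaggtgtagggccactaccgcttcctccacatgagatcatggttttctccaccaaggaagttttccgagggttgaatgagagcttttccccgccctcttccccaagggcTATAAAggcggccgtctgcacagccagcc
Il1b (chr2:129371140-129371289, minus strand): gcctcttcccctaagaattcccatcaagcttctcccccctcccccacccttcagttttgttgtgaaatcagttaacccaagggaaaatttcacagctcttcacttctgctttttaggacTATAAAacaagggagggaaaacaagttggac
Il6 (chr5:30012964-30013113, plus strand): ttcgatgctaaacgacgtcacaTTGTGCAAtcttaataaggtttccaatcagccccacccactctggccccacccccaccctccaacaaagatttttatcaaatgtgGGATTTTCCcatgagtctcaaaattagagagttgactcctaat
Lif (chr11:4257418-4257567, plus strand): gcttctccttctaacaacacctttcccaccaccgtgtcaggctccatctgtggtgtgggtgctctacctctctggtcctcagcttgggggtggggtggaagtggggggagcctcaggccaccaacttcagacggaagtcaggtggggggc
Il12b (chr11:44399913-44400062, plus strand): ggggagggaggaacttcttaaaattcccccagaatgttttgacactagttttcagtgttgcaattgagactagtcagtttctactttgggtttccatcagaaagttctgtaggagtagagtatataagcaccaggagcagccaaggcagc
In these stretches, the Tnf and Il1b sequences each held a TATAAA match between 31 and 24 bases before the start. The Il6 stretch held the C/EBP type match from 128 to 121 bases and the NF-kappaB type match from 43 to 35 bases before the start. Those of Lif and Il12b held none of the 4 in the bases shown, and the AP-1 type match of Lif began 228 bases upstream. A match describes letters only.

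The libraries were first examined as a whole. The shallowest RAW264.7 library held 11638273 counts and the deepest 16478616, while BMDM libraries held 17121240 to 22873094. Olfml3 itself was at 0.53 to 0.65 FPKM (fragments counted per gene, scaled to gene length and library total) in wild-type BMDMs with PBS, and at 0.01 to 0.03 in the knockout. The RAW264.7 labels were at odds with the level of the gene, with 0.15 to 0.19 FPKM in wild type and 0.65 to 1.19 in the libraries labelled knockout with PBS, and 0.13 to 0.29 against 18.33 to 18.93 with LPS. A count over the whole gene cannot show a small edit, and these groups are called "labelled knockout" here. Replicate 1 of the libraries labelled knockout with PBS also stood apart, since its correlation was 0.933 with the rest of its group but 0.954 with wild type. Its Il1rn level, 0.34 FPKM, was that of its own group. Of 8 macrophage markers, 7 had a mean of at least 1 FPKM in every RAW264.7 group, with Mertk at 0, and all 8 in every BMDM group. Their summed level was 3344 to 4013 FPKM in wild-type RAW264.7 and 1145 to 1420 in the labelled knockout, with Lyz2, the lysozyme gene of myeloid cells, at 2052 and 317 FPKM with PBS. Markers of neutrophils, B cells, NK cells, mast cells and fibroblasts summed to at most 8.17 FPKM in any library. The T cell list reached 12.7 FPKM with LPS in wild-type BMDMs and 3.89 in the knockout, with Lck the one gene of 5 detected. The dendritic cell list, mainly Siglech, was at 1.08 to 1.36 FPKM in wild-type RAW264.7 with PBS and at 8.66 to 10.1 in the labelled knockout. The part of these differences in the results that follow was not tested.

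Differences are given on the log2(FPKM + 0.1) scale from a limma fit of the 4 groups of a cell type. A gene is said to have risen, fallen or been called where its adjusted p was under 0.05 and its fold change at least 1.5. The 2 tables were normalised separately, so levels in RAW264.7 and BMDMs are set side by side without a test. FPKM divides by all counts of a library. Among genes with at least 1 FPKM in 3 libraries, the median log2 difference between LPS and PBS in wild type was -0.20 in RAW264.7 and -0.76 in BMDMs, and scaling by the median ratio moved differences upward by 0.24 and 0.79. Rises with LPS are therefore larger relative to the median gene than stated. For genes near 0 with PBS the size of a log2 difference is set largely by the pseudocount, whose effect the SE does not hold, and ranges over the alternatives are given for those. The 4 groups of a fit also share 1 estimate of the spread. PBS libraries near 0 thus widen intervals between genotypes with LPS, as for Il12b in BMDMs and for Il1b and Il27 in RAW264.7. Between genotypes with LPS, median-ratio scaling moved BMDM differences by -0.15, and TPM scaling moved those of RAW264.7 by 0.23.

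LPS raised nearly the whole group. In wild-type RAW264.7 all 10 genes rose, where 5.8% of 26740 genes tested did, and 0 fell, where 12.5% did. In wild-type BMDMs 9 of 10 rose, against 7.94% of 26973 genes, and 0 fell, against 32.5%. Their median log2 difference was 6.49 in RAW264.7 and 6.94 in BMDMs, beside -0.05 and -0.30 over all genes tested. In the labelled knockout RAW264.7 9 rose (7.45% of genes) and 0 fell (14.6%), and in knockout BMDMs 9 rose (8.02%) and 0 fell (30.9%). At an unadjusted p under 0.05 limma also found 0 of the 10 lower with LPS in all 4 comparisons, a count not made over all genes. Of the 10, edgeR and DESeq2 called 0 lower. Over all genes in wild type, edgeR called 2258 of 13639 lower in RAW264.7 and 4342 of 14057 in BMDMs. DESeq2 called 2166 of 26787 and 4211 of 27049. In the groups labelled knockout, edgeR called 2769 and 4164 lower, and DESeq2 2630 and 4076. The members were chosen as induced by LPS, so the counts of the 10 describe them. As a share of all counts, the 10 genes together went from 0.00979% ± 0.000511 (SD, n = 3) to 0.631% ± 0.00182 in wild-type RAW264.7 and from 0.00903% ± 0.000490 to 0.641% ± 0.0129 in wild-type BMDMs. With LPS their share was 0.537% ± 0.00614 in the labelled knockout RAW264.7 and 0.899% ± 0.00984 in knockout BMDMs. In bulk libraries, a smaller number of responding cells and less RNA per cell cannot be told apart.

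**Figure D1:**
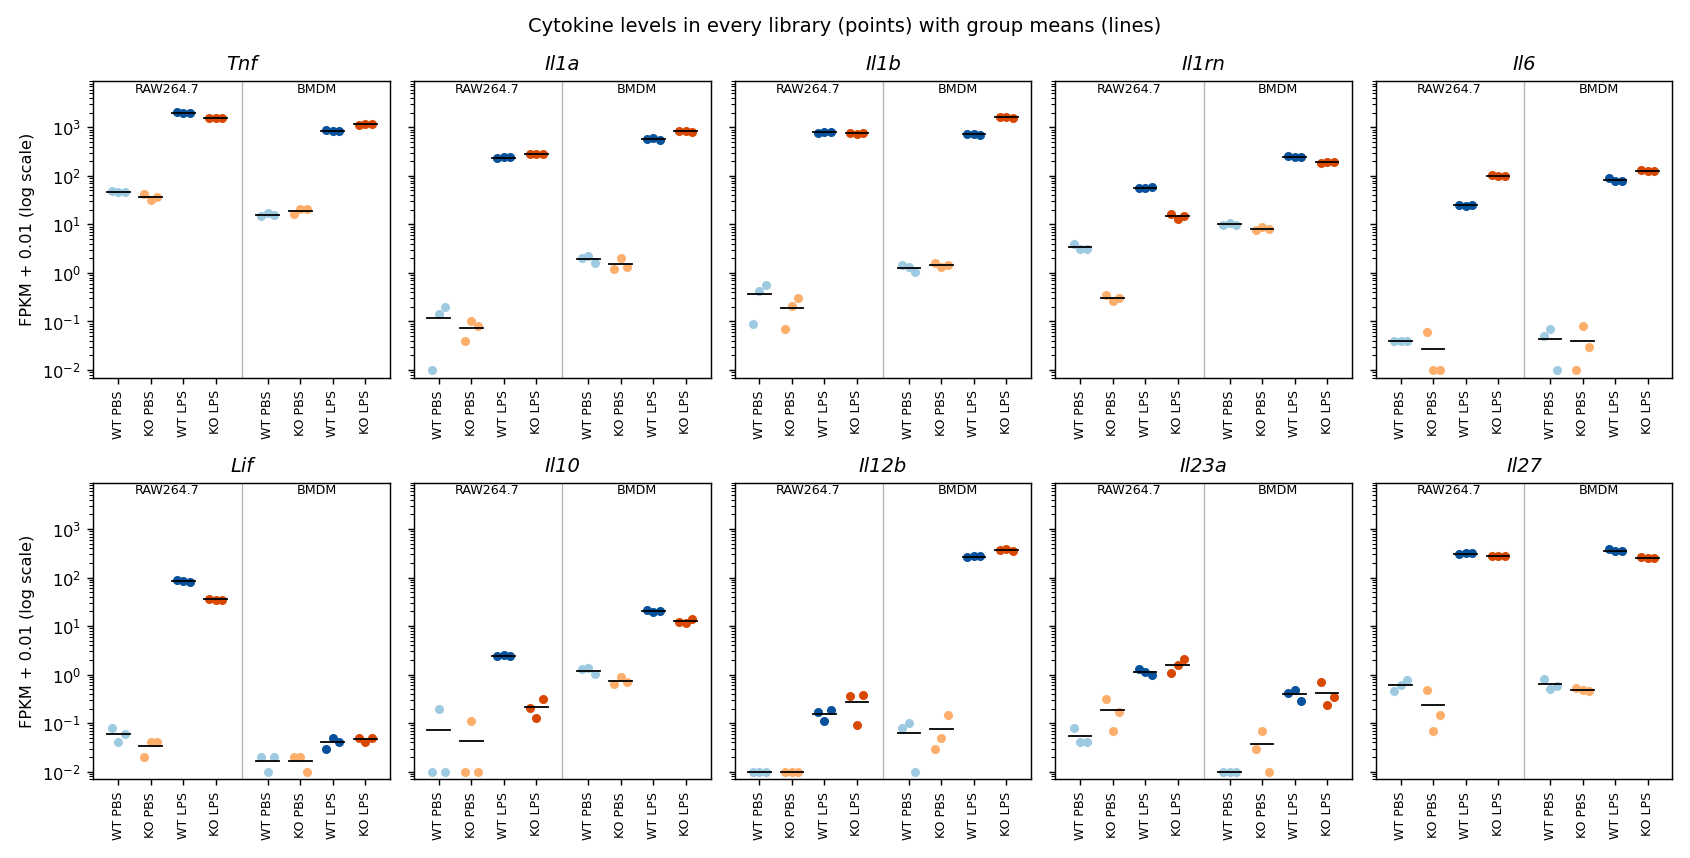
Levels of the 10 cytokine genes in each of the 24 libraries (points) with group means (black lines), as FPKM + 0.01 on a log axis. WT is wild type and KO the group labelled Olfml3 knockout. Lif stayed at or under 0.04 FPKM in the BMDM libraries, Il12b at or under 0.37 in the RAW264.7 libraries, and Tnf was at 14.8 FPKM or more in all 24.

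Tnf, the founding member of the tumour necrosis factor family, had the highest level of the 10 before LPS in both cell types. Its FPKM in wild-type RAW264.7 was 49.2, 45.8 and 46.5 with PBS and 2028, 1940 and 1995 with LPS. In wild-type BMDMs it was 14.8, 17.0 and 15.9 with PBS and 863, 855 and 847 with LPS. The groups did not overlap. From the summed counts the rise was 42.2-fold in RAW264.7 (95% counting interval 40.8 to 43.7) and 53.8-fold in BMDMs (51.3 to 56.5). Such intervals cover counting error only, since reads without molecular identifiers are not independent molecules. The log2 difference was 5.39 ± 0.09 (SE, n = 3; limma adjusted p = 8.04e-10) in RAW264.7 and 5.74 ± 0.09 (adjusted p = 2.63e-11) in BMDMs.

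The IL-1 genes started from almost nothing in RAW264.7 and from a low level in BMDMs. Il1b, which encodes the secreted IL-1beta that caspase-1 matures, was at 0.08, 0.42 and 0.56 FPKM with PBS and at 774, 819 and 790 with LPS in wild-type RAW264.7. Its levels in wild-type BMDMs were 1.44, 1.32 and 1.03, then 743, 728 and 698. Its log2 difference was 10.97 ± 0.45 in RAW264.7 and 9.06 ± 0.11 in BMDMs. Il1a, the gene of the alarmin IL-1alpha, went from at most 0.19 to between 229 and 241 FPKM in RAW264.7 and from between 1.62 and 2.18 to between 555 and 595 in BMDMs. In the labelled knockout, 6 counts of Il1a over 3 PBS libraries and 16 of Il1b were all that RAW264.7 showed before LPS.

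Il1rn had the highest level before LPS after Tnf. It stood at 3.96, 3.07 and 3.06 FPKM in wild-type RAW264.7 and rose to 57.1, 56.8 and 57.9, a log2 difference of 4.06 ± 0.13 (limma adjusted p = 2.13e-08). Wild-type BMDMs went from 9.84, 10.6 and 9.69 to 256, 239 and 244, a difference of 4.60 ± 0.06 (adjusted p = 1.83e-11). By summed counts, the rise was 17.1-fold (15.9 to 18.4) and 24.6-fold (23.8 to 25.4). These rises were smaller than those of Il1a and Il1b, and the intervals of the log2 differences did not overlap in either cell type.

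Il6 and Lif encode cytokines that signal through the shared receptor chain gp130. Il6 was close to absent with PBS, with 3 counts over the wild-type RAW264.7 libraries and 5 over those of BMDMs. With LPS it reached 24.8, 24.2 and 25.4 FPKM in RAW264.7 and 89.5, 80.1 and 77.3 in BMDMs, log2 differences of 7.58 ± 0.14 and 9.30 ± 0.21. Over the alternatives these ran from 4.65 to 9.98 and from 6.33 to 12.2, always past the threshold, and by summed counts the rise was 856-fold (293 to 4156) and 2642-fold (1132 to 8137). Lif, the gene of leukaemia inhibitory factor, rose in RAW264.7 from 0.07, 0.03 and 0.05 to 87.7, 85.3 and 80.6 FPKM, a log2 difference of 9.15 ± 0.11 (limma adjusted p = 1.04e-10; 6.35 to 11.0 over the alternatives). In BMDMs the same gene stayed at 0.02, 0.04 and 0.03 FPKM with LPS, which is 9 counts over 3 libraries against 2 with PBS. That ratio was 4.45 with a counting interval from 0.921 to 42.3. Its log2 difference of 0.28 ± 0.07 did not reach a fold of 1.5, while DESeq2 on counts, which fits no pseudocount, called it (2.96, adjusted p = 0.0466).

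Il10, the main anti-inflammatory cytokine gene of macrophages, was induced to a low level in RAW264.7. In wild-type cells it was at 0, 0.19 and 0 FPKM with PBS and at 2.39, 2.49 and 2.38 with LPS, resting on 133 counts in all, a log2 difference of 4.14 ± 0.44 (limma adjusted p = 6.58e-05). BMDMs had 1.27, 1.33 and 1.01 FPKM with PBS and 21.7, 19.2 and 20.3 with LPS, a difference of 3.98 ± 0.13 (adjusted p = 3.46e-09). In the labelled knockout RAW264.7 the response was 10 counts against 2, a ratio of 6.32 (1.35 to 59.3), and the log2 difference of 1.25 was not called (limma adjusted p = 0.0596). It was called in 6 of 23 alternatives: by DESeq2 (2.93, adjusted p = 0.0366), by edgeR without its filter, with median-ratio scaling, with the FPKM filter, and when replicate 2 of either RAW264.7 PBS group was left out (limma adjusted p = 0.0288 for the labelled knockout and 0.0130 for wild type).

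The IL-12 family is built from paired chains: p40 (Il12b) joins p35 to form IL-12 or p19 (Il23a) to form IL-23, and p28 (Il27) joins EBI3 to form IL-27. Il12b rose in BMDMs from 0.07, 0.09 and 0 FPKM to 262, 277 and 276, a log2 difference of 10.84 ± 0.28 (limma adjusted p = 5.78e-10). This rests on 7 counts with PBS and ran from 8.02 to 13.1 over the alternatives, beside 5042-fold by summed counts (2447 to 12540). In RAW264.7 it was at 0 in all 6 PBS libraries, and the 12 counts of the wild-type LPS libraries were at least 4.07-fold higher than a floor of 3 counts for the group, a bound that leaves out the counting error of the 12. Its fitted log2 difference of 1.29 (limma adjusted p = 0.0132), from 0.20 to 5.2 over the alternatives, is no such bound. It lost its call without replicate 3 of the wild-type LPS libraries (adjusted p = 0.0509) and with a pseudocount of 1 (0.109). Il23a was low in both cell types, with 0.99 to 1.32 FPKM in wild-type RAW264.7 and 0.28 to 0.47 in wild-type BMDMs with LPS, from 107 and 57 counts. With 0 counts in wild-type BMDMs with PBS, the rise there was at least 18.8-fold over the same floor, and the fitted log2 difference was 2.25 ± 0.30 (0.47 to 7.67 over the alternatives). In wild-type RAW264.7 the fitted difference was 3.12 ± 0.33 (1.04 to 5.01).

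Il27 was induced in both cell types to levels of the same order. It went from 0.44, 0.61 and 0.75 FPKM to 304, 316 and 317 in wild-type RAW264.7 and from 0.79, 0.49 and 0.58 to 385, 347 and 346 in wild-type BMDMs. Log2 differences were 8.83 ± 0.38 and 8.98 ± 0.13. Il27, Il1a and Il1b overlap an annotated gene on the opposite strand (GENCODE M21), and whether counting used strand is not given in the sources used here. Apobr, which overlaps Il27, was at 60.2 to 61.8 FPKM in wild-type RAW264.7 with LPS and at 64.2 to 65.8 in wild-type BMDMs. Il1bos and Gm14023, which overlap Il1b and Il1a, stayed at or under 4.83 FPKM in all libraries.

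**Figure D2:**
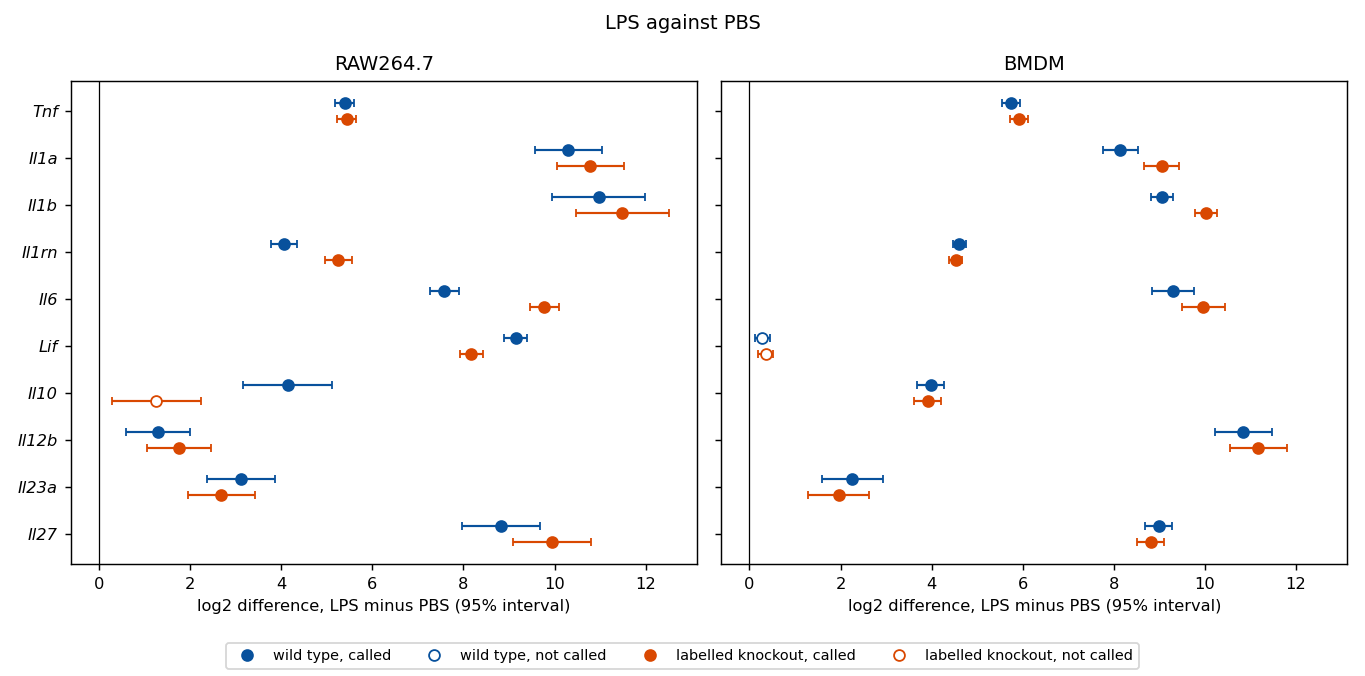
Log2 difference between LPS and PBS for each cytokine gene, with 95% intervals from the limma fit, for wild type (blue) and the groups labelled knockout (orange), and filled points for called genes. In RAW264.7 wild type all 10 points are filled and lie between 1.29 (Il12b) and 10.97 (Il1b), and Lif in BMDMs lies at 0.28 and 0.36.

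Libraries labelled Olfml3 knockout were next compared with wild type under LPS, which asks whether the loss of this gene changed the activated state. In RAW264.7 every direction given follows the label, which the Olfml3 level went against. In RAW264.7, 1 of the 10 genes was higher in the labelled knockout, where 9.73% of all genes were, and 3 were lower, where 7.6% were. In BMDMs 1 was higher, against 3.23% of genes, and 1 was lower, against 1.53%. Over all 10, the median log2 difference was -0.12 in RAW264.7 and 0.26 in BMDMs, beside 0.00 and 0.04 over all genes tested. The called genes were Il6, Il1rn, Lif and Il10 in RAW264.7 and Il1b and Il10 in BMDMs. Il10 was thus lower in both cell types.

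Il10 with LPS was at 0.2, 0.12 and 0.31 FPKM in the labelled knockout RAW264.7, against 2.39 to 2.49 in wild type. These are 10 counts against 133 over 3 libraries each. The log2 difference was -3.07 ± 0.44 (limma adjusted p = 0.00127), and with a pseudocount of 0.01 it was -3.56 with an adjusted p of 0.0754. Knockout BMDMs had 12.1, 11.6 and 13.8 FPKM, below all 3 wild-type libraries at 19.2 to 21.7, a difference of -0.70 ± 0.13 (adjusted p = 0.00549). The same direction was seen in BMDMs with PBS, at 0.64 to 0.9 FPKM against 1.01 to 1.33.

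Il1rn was lower in the labelled knockout RAW264.7 with and without LPS. Its FPKM with LPS was 16.5, 13.2 and 15.2, against 57.1, 56.8 and 57.9 in wild type, a log2 difference of -1.93 ± 0.13 (limma adjusted p = 1.39e-05). With PBS it was 0.34, 0.25 and 0.3, against 3.96, 3.07 and 3.06, a difference of -3.12 ± 0.13 (adjusted p = 6.71e-07). Leaving out the replicate 1 that stood apart gave -3.20 with PBS (adjusted p = 1.21e-06). In knockout BMDMs with LPS the level was 188, 191 and 193, below 239 to 256 in wild type. That difference of -0.37 ± 0.06 passed the adjusted p (0.00319) but not the fold of 1.5.

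Il6 and Lif moved in opposite directions in RAW264.7. Il6 with LPS was at 103, 97.5 and 99.8 FPKM in the labelled knockout, against 24.2 to 25.4 in wild type, a log2 difference of 2.01 ± 0.14 (limma adjusted p = 1.70e-05) or 4.02-fold. Lif was at 36.1, 35.1 and 34.97 FPKM against 80.6 to 87.7, a difference of -1.25 ± 0.11 (adjusted p = 6.75e-05) or 2.38-fold lower. In neither gene did the groups overlap. Knockout BMDMs had 131, 126 and 124 FPKM of Il6, above 77.3 to 89.5 in wild type, and the difference of 0.63 ± 0.21 had a limma adjusted p of 0.0682. A fit of the 6 LPS libraries alone, added after the data were seen because the PBS libraries near 0 widen the shared spread, gave Il6 in BMDMs an adjusted p of 0.0127 in limma. Leaving out replicate 2 of the knockout PBS libraries or replicate 3 of the wild-type ones gave 0.0307 and 0.0390. By edgeR on counts the value was 0.48, which is under the fold of 1.5. Lif in BMDMs was too low to compare, with 10 counts against 9.

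Il1b was the gene that was higher in knockout BMDMs. Its level with LPS was 1613, 1630 and 1584 FPKM, against 743, 728 and 698 in wild type, a log2 difference of 1.15 ± 0.11 (limma adjusted p = 0.000128) or 2.23-fold. The groups were far apart. In RAW264.7 it was 771, 746 and 768 FPKM in the labelled knockout, against 774, 819 and 790. Here the difference was -0.06, with a 95% interval from -1.08 to 0.96, and was 0.17 with TPM scaling, so no direction is given.

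**Figure D3:**
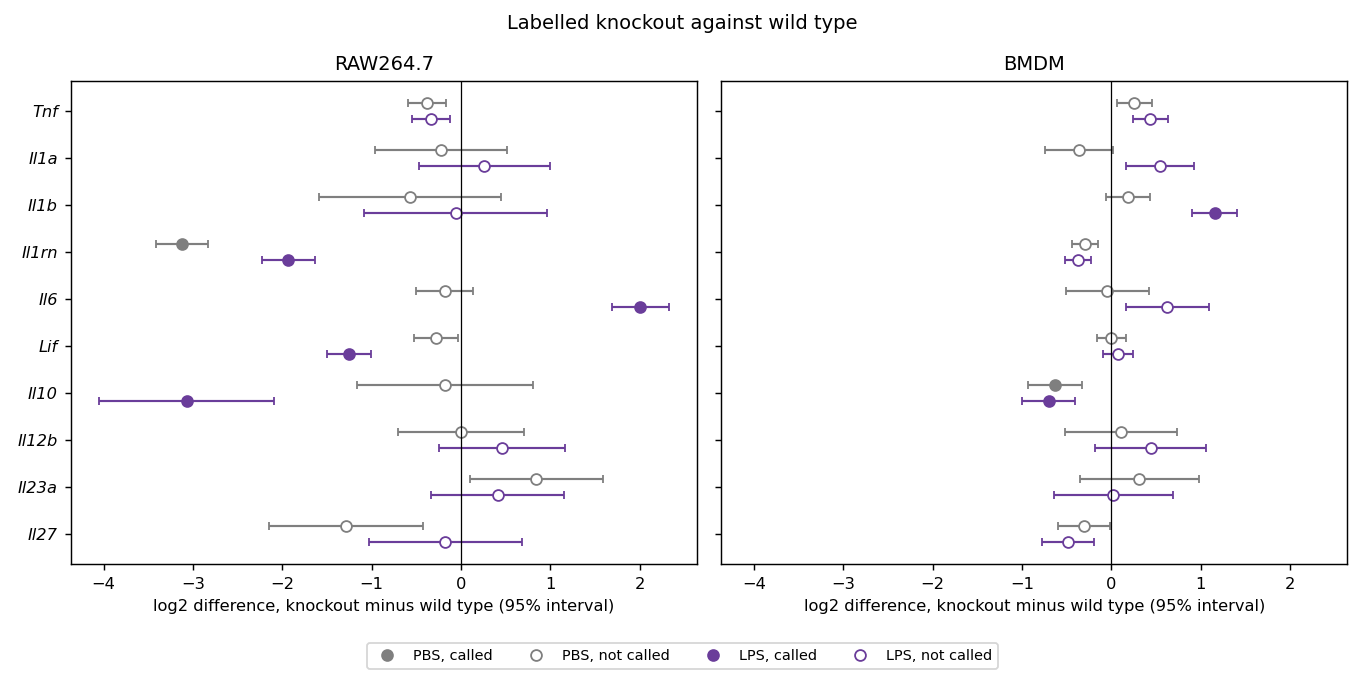
Log2 difference between the groups labelled knockout and wild type for each cytokine gene, with 95% intervals from the limma fit, with PBS (grey) and with LPS (purple), and filled points for called genes. Il10 with LPS lies below 0 in both panels (-3.07 and -0.70), and Il6 and Lif lie on opposite sides in RAW264.7 (2.01 and -1.25).

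Tnf separated the groups in both cell types, in opposite directions and by less than 1.5-fold. It was at 1581, 1567 and 1586 FPKM with LPS in the labelled knockout RAW264.7, below 1940 to 2028 in wild type (log2 difference -0.33 ± 0.09, limma adjusted p = 0.0303). TPM scaling reduced this to -0.10. In knockout BMDMs it was 1141, 1170 and 1164, above 847 to 863 (0.44 ± 0.09, adjusted p = 0.00624). With median-ratio scaling the BMDM value was 0.28.

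The remaining genes were not called in this comparison. Il1a with LPS was at 280 to 289 FPKM in the labelled knockout RAW264.7, above 229 to 241, and at 819 to 851 in knockout BMDMs, above 555 to 595. Its BMDM difference of 0.54 had a 95% interval from 0.16 to 0.92 and a limma adjusted p of 0.0557. Il12b in BMDMs was at 356 to 379 FPKM, above 262 to 277 (0.44, interval -0.18 to 1.06). That interval is widened by PBS libraries of 0 to 5 counts. Over the alternatives the Il12b difference was 0.28 to 0.46, under the fold of 1.5 in all. Il27 was at 254 to 262 FPKM in knockout BMDMs, below 346 to 385, a difference of -0.48 ± 0.13 (limma adjusted p = 0.0291) that passed the fold of 1.5 with edgeR on counts (-0.63, adjusted p = 1.93e-13). In the labelled knockout RAW264.7, Il27 was at 275 to 279 FPKM, below 304 to 317 (-0.17, interval -1.03 to 0.69), and at 0.06 with TPM scaling. For Il23a the groups overlapped in both cell types, as they did for Il12b in RAW264.7, at 0.08 to 0.37 FPKM against 0.1 to 0.18. Without replicate 2 of the labelled knockout, the Il12b difference of 0.46 became 0.91 (limma adjusted p = 0.00313). Counting libraries alone, 2 genes were higher without overlap in the labelled knockout RAW264.7, where 21.6% of all genes tested were, and 6 were lower, where 18.6% were. Of these 6, Il1b and Il27 turned positive with TPM scaling. In knockout BMDMs 5 were higher without overlap, against 20% of genes, and 3 were lower, against 6.75%.

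With PBS few of the genes were called, and many were too low to compare. In RAW264.7, Tnf and Il1rn alone had a mean above 1 FPKM in either PBS group. The others had means of 0.6 FPKM or less, where few counts leave most differences undecided. In BMDMs, Il6, Il12b, Il23a and Lif had means of 0.07 FPKM or less. In RAW264.7 limma called 0 of the 10 higher, where 4.79% of genes were, and 1 lower, Il1rn, where 3.77% were. At an unadjusted p under 0.05, 1 was higher and 4 were lower, a count not made over all genes. Over all genes, edgeR called 1899 of 13639 higher and 1217 lower, and DESeq2 1951 of 26787 higher and 1292 lower. Of the 10, edgeR and DESeq2 each called 0 higher and 2 lower. The second was Il27, at 0.48, 0.06 and 0.14 FPKM against 0.44 to 0.75. Its log2 difference was -1.29 (limma adjusted p = 0.0568) and, without the replicate 1 that stood apart, -1.81 (adjusted p = 0.000176). Tnf was at 32.0 to 41.5 FPKM, below 45.8 to 49.2 (-0.38, limma adjusted p = 0.0333), under the fold of 1.5. Il1a, at 0.19 FPKM or less in all 6 libraries, was called lower without replicate 1 of wild type (-0.68, adjusted p = 0.0475). In BMDMs limma called 0 higher, against 0.901% of genes, and 1 lower, Il10, against 0.916%. At an unadjusted p under 0.05, 1 was higher and 3 were lower, again a count not made over all genes. Of the 10, both count tests called 0 higher and 1 lower. Over all genes, edgeR called 253 of 14057 higher and 277 lower, and DESeq2 201 of 27049 higher and 262 lower. The Il10 difference of -0.63 ± 0.13 (limma adjusted p = 0.0300) lost its call when any of 4 PBS libraries was left out (replicate 1 or 3 of the knockout, or replicate 1 or 2 of wild type), with adjusted p from 0.0983 to 0.109. It was also lost with a replicate block (adjusted p = 0.0758).

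Whether the response to LPS itself differed by genotype was tested as an interaction, which shares its libraries with the comparisons already given. In RAW264.7, 2 genes had a larger response in the labelled knockout, where 0.905% of genes did, and 2 a smaller one, where 1.04% did. The larger ones were Il6 (2.19 ± 0.20 on the log2 scale, limma adjusted p = 0.000606) and Il1rn (1.19 ± 0.19, adjusted p = 0.0108), and the smaller ones Il10 (-2.89 ± 0.62, adjusted p = 0.0488) and Lif (-0.98 ± 0.16, adjusted p = 0.0119). For Lif the value was -0.32 by edgeR and -0.25 by DESeq2, and by summed counts its rise was 1740-fold (916 to 3805) in wild type and 1440-fold (617 to 4437) in the labelled knockout. Il6, Il10 and Lif had at most 9 counts per group with PBS, and edgeR and DESeq2 on counts called 1 interaction in RAW264.7, that of Il1rn. Over all genes these 2 tests called 441 of 13639 and 539 of 26787. With a pseudocount of 1 the Il1rn value turned to -0.13. The Il10 call was lost with TPM scaling and in 10 of the 12 fits that left out 1 library (limma adjusted p from 0.0618 to 0.117) and with a replicate block (0.0861). Without the replicate 1 that stood apart, Il27 was called as well (1.64, adjusted p = 0.0128), and without replicate 2 of the labelled knockout with LPS so was Il12b (0.91, adjusted p = 0.0457). In BMDMs 1 gene had a larger response, Il1b (0.97 ± 0.15, limma adjusted p = 0.00633), against 1.91% of genes, and 0 a smaller one, against 1.02%. At an unadjusted p under 0.05, 0 of the 10 were lower there, a count not made over all genes. Of the 10, edgeR and DESeq2 called 0 lower and 2 higher. The second was Il1a (0.78 by edgeR, adjusted p = 0.000343, and 0.91 by limma, adjusted p = 0.0566). Over all genes, edgeR called 441 of 14057 higher and 357 lower, and DESeq2 383 of 27049 higher and 331 lower. In limma Il1a was called without replicate 2 of the knockout PBS libraries (1.12, adjusted p = 0.00557) or replicate 3 of the wild-type ones (1.03, adjusted p = 0.0483).

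Apart from the pseudocount, ratios within a library do not depend on its scaling, and 4 were followed with LPS. The log2 ratio of Il1rn to Il1b, the antagonist to the agonist, was -3.79 ± 0.05 (SD, n = 3) in wild-type RAW264.7 and -5.66 ± 0.14 in the labelled knockout. In BMDMs it was -1.55 ± 0.05 and -3.08 ± 0.03, so the ratio was lower by 1.53 in the knockout, and by 1.87 in RAW264.7. The ratio of Il10 to Tnf was -9.62 ± 0.07 and -12.4 ± 0.44 in RAW264.7, and -5.39 ± 0.08 and -6.53 ± 0.13 in BMDMs. Both ratios were lower in the 3 libraries labelled knockout than in the 3 wild-type ones, without overlap, in each cell type. The single genes differed between cell types. On the log2 scale Il1rn was at -1.93 and Il1b at -0.06 in RAW264.7, and at -0.37 and 1.15 in BMDMs. Il10 in the labelled knockout RAW264.7 with LPS rests on 10 counts. With PBS, mean Il1rn to Il1b in wild type and knockout was 3.12 and 0.57 in RAW264.7, and 2.91 and 2.42 in BMDMs. Mean Il10 to Tnf with PBS was -3.62 and -4.51 in BMDMs, and -8.37 and -8.17 in RAW264.7, there on few Il10 counts. Apart from Il10 to Tnf in RAW264.7, mean ratios were thus also lower with PBS in the groups labelled knockout. The gap of Il1rn to Il1b in BMDMs was smaller with PBS than with LPS. In RAW264.7 this ratio with PBS rests on 29 Il1b counts in wild type and 16 in the labelled knockout. Il1a to Il1b differed in opposite directions, by 0.32 in RAW264.7 and by -0.61 in BMDMs. The ratio of Il12b to Il23a overlapped between genotypes in both cell types, at -2.34 and -2.29 in RAW264.7 and at 9.15 and 9.57 in BMDMs. With a pseudocount of 1 it was -0.90 and -1.03 in RAW264.7, in the other direction, and did not overlap in BMDMs (exact permutation p = 0.1, 7.62 and 8.04). A two-sided exact permutation test of 3 against 3 cannot go below p = 0.1, which 6 of the 8 ratio comparisons reached (adjusted p = 0.133 over the 8).

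**Figure D4:**
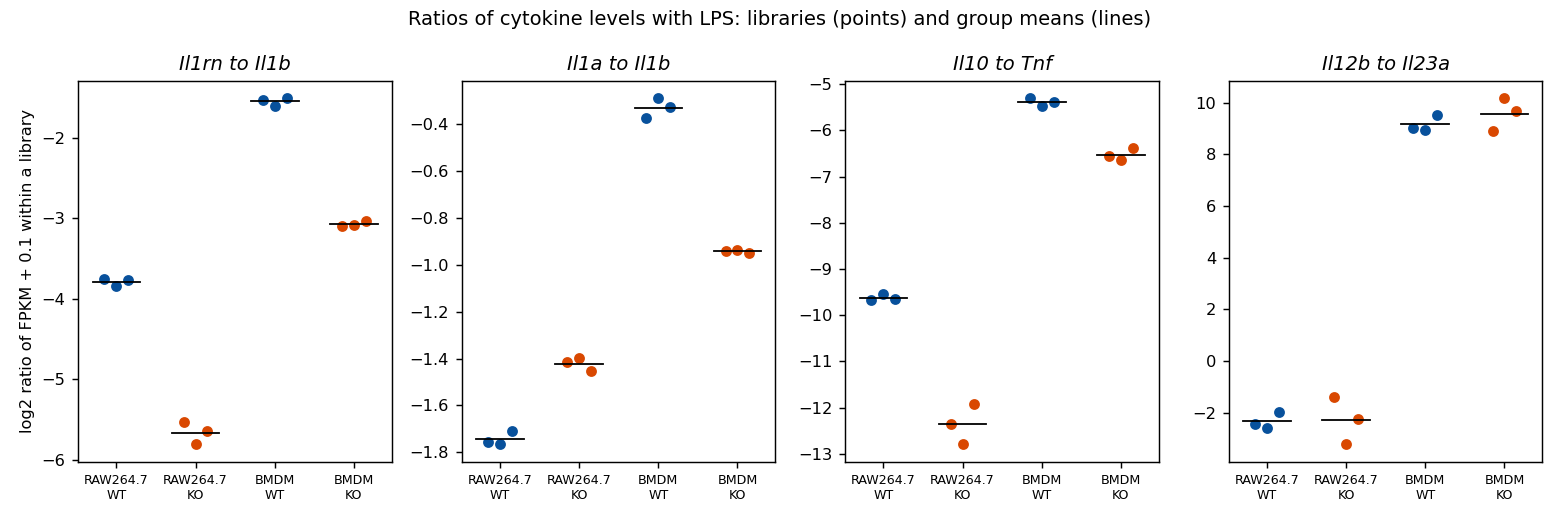
Log2 ratios of FPKM + 0.1 within each LPS library (points) with group means (lines), for wild type (WT, blue) and groups labelled knockout (KO, orange), each panel with its own axis. The ratios of Il1rn to Il1b and of Il10 to Tnf are lower in all 3 libraries labelled knockout of each cell type, with means of -5.66 against -3.79 and of -12.4 against -9.62 in RAW264.7.

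FPKM divides by the exonic length listed for a gene, 5535 bases for Il1rn and 1021 for Il27. An expressed transcript may be shorter, so the order given here is that of FPKM values only. In wild-type RAW264.7 with LPS the order was Tnf, Il1b, Il27, Il1a, Lif, Il1rn, Il6, Il10, Il23a and Il12b, from 1988 to 0.15 FPKM, and no neighbours overlapped. The labelled knockout had Il6, at 100.1 FPKM, ahead of Lif, and Il10 last, overlapping Il12b. In wild-type BMDMs the order was Tnf, Il1b, Il1a, Il27, Il12b, Il1rn, Il6, Il10, Il23a and Lif, from 855 to 0.03 FPKM, again without overlap of neighbours. In knockout BMDMs Il1b, at 1609 FPKM, was ahead of Tnf at 1158, and Il12b, at 368, was ahead of Il27 at 257.

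The genes with the most similar pattern over the 6 log2 group differences (each group mean minus the wild-type PBS mean of its cell type) were sought among 10357 genes, by root mean square distance. These candidates had a symbol and a mean of at least 1 FPKM in at least 1 group of each cell type. Il23a had the nearest neighbour, Nfkb1, at 0.20, followed by St3gal1 and Gm48786. For Tnf they were Nfkbiz at 0.56, Src and Traf1. Those of Il10 were Vgf at 0.65, Abtb2 and Scimp, and those of Il1rn were Il15 at 0.67, Ptges and Clec4e. For Il1a the list was Ccl22 at 0.67, Il1b and Il27, and for Il1b it was Il1a at 0.84, Acod1 and Ccl22. The Il6 list was Ptgs2 at 0.78, Edn1 and Il27, and that of Il27 was Ptgs2 at 0.94, Cxcl10 and Il6. Il12b and Lif had no close match among these candidates, with Cd69 at 1.98 and Gm28913 at 1.39 the nearest. Socs3 and Serpina3f followed for Il12b, and Rgs16 and Mir221 for Lif. Both members were near 0 in 1 cell type, where a candidate had to reach 1 FPKM. Genes that share that pattern were thus left out beforehand, so the distances cannot show that none exists. With a pseudocount of 1, Tnf, Il1rn, Il6 and Il23a kept 0 of their 3 neighbours, so these lists depend on how low levels are treated.

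The receptors and relatives of these cytokines responded in both directions. Of 14 receptor genes, 12 were tested in RAW264.7, where 4 rose and 4 fell with LPS in wild type (median log2 difference 0.08, beside -0.05 over all genes). In wild-type BMDMs 7 of 14 rose and 5 fell (0.29, beside -0.30). Among all genes tested, 5.8% rose and 12.5% fell with LPS in wild-type RAW264.7, and 7.94% rose and 32.5% fell in wild-type BMDMs. Tnfrsf1b, which encodes the second TNF receptor, rose from 2.77 to 65.9 FPKM in wild-type RAW264.7 (log2 difference 4.54, limma adjusted p = 1.33e-08). Il6ra, the IL-6 receptor gene, fell by 1.94 on the log2 scale in RAW264.7 and by 3.84 in BMDMs. Lifr, the receptor gene of LIF, fell in RAW264.7 from 1.59 to 0.06 FPKM. With LPS, 2 of 12 receptor genes were higher and 2 lower in the labelled knockout RAW264.7, and 3 of 14 were lower and the other 11 not called in knockout BMDMs. Over all genes tested, 9.73% were higher and 7.6% lower in RAW264.7, and 3.23% and 1.53% in BMDMs.

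Partner chains and relatives mostly rose. Of 24 such genes, 22 were tested in RAW264.7, where 13 rose and 9 were not called in wild type (median 1.55), and 23 in BMDMs, where 13 rose and 4 fell (median 2.10). Il36a, an IL-1 relative, rose in wild-type RAW264.7 from 0 to 3.41 FPKM. The largest rises in wild-type BMDMs were those of Tnfsf15, from 0.26 to 24.9 FPKM, and Tnfsf10, the gene of TRAIL, from 0.88 to 51.6 FPKM. Il16 fell there from 1.99 to 0.06 FPKM. The partner chains of the IL-12 family, outside the rule for named genes and chosen after their values were seen, differed: Ebi3 rose in both cell types (2.32 and 2.61 on the log2 scale), while Il12a rose in BMDMs to 4.10 FPKM and was listed at 0 in wild-type RAW264.7. With LPS, 2 of 22 relatives were higher and 7 lower in the labelled knockout RAW264.7, and 1 of 23 was higher and 1 lower in knockout BMDMs. The shares over all genes, for LPS against PBS and between genotypes, are those given beside the receptors.

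Of 10 genes for cytokine processing and shedding, 7 rose with LPS in wild type in each cell type (medians 0.99 and 1.52), and the other 3 were not called. In the labelled knockout RAW264.7 with LPS 2 were higher and 2 lower, and in knockout BMDMs 2 were lower and the other 8 not called. Here too the shares over all genes, for LPS against PBS and between genotypes, are those given beside the receptors. Among the 3 lists, Furin and Tnfsf10 were lower with LPS in the labelled knockout RAW264.7, where the Olfml3 level went against the label, and in knockout BMDMs. Furin, which encodes a proprotein convertase, was at 8.87 against 13.9 FPKM in RAW264.7 (log2 difference -0.64, limma adjusted p = 0.00383) and at 24.7 against 38.1 in BMDMs (-0.62, adjusted p = 4.3e-05). Tnfsf10 was at 23.3 against 51.6 FPKM in BMDMs (-1.14, limma adjusted p = 1.51e-05) and at 0.09 against 0.24 in RAW264.7 (-0.89, adjusted p = 0.000378). Its RAW264.7 levels are near 0, where the pseudocount largely sets the size of a log2 difference. No alternative is given for this gene. Osm and Il18bp, named after their values were seen, were called in opposite directions in the 2 cell types. Osm, a gp130 cytokine gene, was lower in the labelled knockout RAW264.7 (5.23 against 15.4 FPKM) and higher in knockout BMDMs (4.76 against 1.68). Il18bp, of the processing list, was higher in the labelled knockout RAW264.7 (2.02 against 1 FPKM) and lower in knockout BMDMs (8.33 against 15.8).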

How the data were processed

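Poly(A) RNA of 24 libraries was sequenced by the authors as paired 150-base reads, and the submitters' processing notes name the build mm10. No aligner or counter was named in the sources used here. The positions in the tables differ from GRCm38 for all 10 genes, so none is given. The authors deposited raw counts and FPKM values per gene. FPKM recomputed from the counts agreed within 1% for 99.88% (RAW264.7) and 99.51% (BMDM) of values with at least 50 counts. Groups follow the sample titles, since the genotype tag differs from the title in 12 samples. Annotation columns were not used. limma 3.58.1 (R 4.3.3) was fitted to log2(FPKM + 0.1) of all 12 libraries of a cell type, over genes above 0 in at least 1, without covariates, two-sided, with Benjamini-Hochberg adjustment. edgeR 4.0.16 and DESeq2 1.42.0 tested the counts as alternatives. Other alternatives changed the pseudocount, filter, scaling, moderation or threshold, added a replicate block, or left out 1 library. The fit of LPS libraries alone was chosen after seeing the data. Methods were tested on simulated data. Named genes outside the 10 are the 2 largest called rises and falls with LPS per cell type among 3 lists (mean of at least 1 FPKM in either group), and list genes called in the same direction in the libraries labelled knockout of both cell types with LPS. Members and lists were chosen with earlier results of these data known. Figures were drawn with matplotlib 3.10.9 in Python 3.11.15.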

Additional observations from a re-analysis of the deposited data

Results flagged for a closer look

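The LPS response differed between the groups labelled knockout and wild type (limma interaction on the log2 scale) for Il6 (2.19), Il1rn (1.19), Lif (-0.98) and Il10 (-2.89) in RAW264.7, where the Olfml3 level went against the label, and for Il1b (0.97) in BMDMs. Of the 4 in RAW264.7, edgeR and DESeq2 called Il1rn, which was -0.13 with a pseudocount of 1. The cause was not tested.

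With LPS, the 3 libraries labelled knockout were all below the 3 wild-type ones in RAW264.7 and all above them in BMDMs for 2 genes. Tnf differed by -0.33 and 0.44 on the log2 scale, and Il1b by -0.061 and 1.15. The RAW264.7 value of Il1b had a 95% interval from -1.08 to 0.96 and was 0.17 with TPM scaling, so its direction there is not settled. The difference between the cell types was not tested, since their tables were normalised separately.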

How the results depend on the processing

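The number of the 10 genes called between genotypes with PBS in RAW264.7 was 1 and became 2 with DESeq2, edgeR with or without its filter, the filter of at least 1 FPKM in 3 libraries, the intensity trend or the adjusted p alone, and was 1 to 2 when each library was left out. Over all genes, 2287 of 26740 were called there. The number was 3243 of 26787 with DESeq2, 3116 of 13639 with edgeR and 3388 of 26787 without its filter. It was 2395 of 12290 with the FPKM filter, 2435 with the intensity trend and 3244 with the adjusted p alone. In BMDMs with PBS the number of the 10 called was 1. It became 2 with the adjusted p alone, 0 with a pseudocount of 1 and 0 with the replicate block, and was 0 to 1 when each library was left out. Over all genes, 490 of 26973 were called there, 1116 with the adjusted p alone, 256 with a pseudocount of 1 and 445 with the replicate block. In BMDMs with LPS, the number of the 10 called was 2. It became 5 with the adjusted p alone and 3 with DESeq2, both edgeR fits, the FPKM filter, the intensity trend, median-ratio scaling, a pseudocount of 1 and the LPS libraries alone, and was 2 to 3 when each library was left out. Over all genes, the adjusted p alone took the number called in that comparison from 1285 to 4804 of 26973. It was 1175 of 27049 with DESeq2, 1279 of 14057 with edgeR and 1318 of 27049 without its filter. With the FPKM filter it was 1037 of 11492, and with the LPS libraries alone 1069 of 23689. The intensity trend gave 1277, median-ratio scaling 1242 and a pseudocount of 1 gave 439. The BMDM interaction count of 1 of the 10 became 2 with DESeq2, both edgeR fits, the FPKM filter and the intensity trend, became 3 with a pseudocount of 1, and was 1 to 2 when each library was left out. Over all genes, 789 of 26973 were called there, 780 with the intensity trend and 402 with a pseudocount of 1. The number was 714 of 27049 with DESeq2, 798 of 14057 with edgeR, 813 of 27049 without its filter and 728 of 11492 with the FPKM filter. The RAW264.7 interaction count of 4 of the 10 became 1 with DESeq2, both edgeR fits and a pseudocount of 0.01, became 3 with the replicate block, TPM scaling, the intensity trend and a pseudocount of 1, and was 3 to 5 when each library was left out. Over all genes, 521 of 26740 were called there, 353 with a pseudocount of 0.01 and 513 with 1. The replicate block gave 367, TPM scaling 437 and the intensity trend 481. DESeq2 called 539 of 26787, edgeR 441 of 13639 and, without its filter, 569 of 26787. The Il1rn interaction in RAW264.7 was -0.13 with a pseudocount of 1. The ratio of Il10 to Tnf in RAW264.7 differed by -3.23 with a pseudocount of 0.01 and by -1.17 with 1. The cause was not tested.

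Under the replicate block, 98 of 100 differences of single genes kept their call and 2 lost it. Whether same-numbered libraries share more than a number is not given. Their deviations correlated at -0.00232 in RAW264.7 and 0.0297 in BMDMs on average. For libraries of different number the averages were 0.00123 and -0.0148. Deviations were taken from group means, so these averages follow largely from those of same-numbered libraries and are no separate reference. With 3 libraries per group these values cannot settle the question. With each library left out, 1174 of 1200 values kept direction and call, 15 lost the call and 11 gained it. DESeq2 gave no adjusted p for 2 values. Il12b and Il10 in RAW264.7, Il23a, and Lif in BMDMs rest on few counts, which widens their counting intervals.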
